A study of Mus musculus with 2 samples.

Results

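The 36 genes described here encode liver enzymes that take amino acids apart, except that Etnppl acts on phosphoethanolamine. They are sorted by the amino acid or linked groups of them that each enzyme acts on, with Etnppl placed beside the lysine enzyme Aass. The list was drawn up with earlier results of these data known, so its counts, the step orders and the motif shares given here are descriptions and not independent evidence. Every non-control probe whose gene name on the array was one of the 36 was taken, which gave 42 probes, and all 36 genes were measured among 19951 genes in all. They were compared between 2 pools of mouse liver RNA, each hybridised to 1 Agilent 1-colour array of 60-base probes. The tested pool came from Pnpla8-/- animals (the KO pool), which lack a phospholipase that cleaves fatty acids from membrane phospholipids, and the comparison pool from Pnpla8+/+ animals (the WT pool). Both were C57BL/6N. Each pool combined equal amounts of liver RNA from 5 animals. The sample labels give an age of 6 weeks and the design text 8 weeks, and nothing else at hand settles which applies; the animals' sex and the part of Pnpla8 that was removed are likewise not given in the sources used here. By its title, the study asks how choline released from phosphatidylcholine feeds methyl groups into the methionine cycle.

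The liver is the main site where amino acids are degraded. For many of them the amino group is first moved to a keto acid by a transaminase, an enzyme that carries pyridoxal phosphate (PLP, the active form of vitamin B6), and the nitrogen is collected as glutamate or aspartate on its way to urea. The carbon skeletons then enter the citric acid cycle, gluconeogenesis or ketone body synthesis through a route of their own for each amino acid. Several of the enzymes, among them tyrosine aminotransferase and serine dehydratase, are textbook examples of genes induced in rodent liver by fasting, glucagon and glucocorticoids.

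The processed signal is the scanner software's background-subtracted spot intensity. It was divided by each array's 75th percentile, which was 1018 on the KO array and 1207 on the WT array, and each gene is described by the log2 ratio of KO over WT after that scaling. Spots well above background made up 65.6% of the 43020 non-control spots of the KO array and 70.1% of those of the WT array, and 0 were saturated on either. The deleted gene, Pnpla8, read 4.45 in the KO pool, not well above background, against 144.5 in the WT pool, a ratio at least 6.81-fold lower; the labels do not say whether its probe lies within the deleted part. With 1 array per genotype no difference has a replicate check and no test across samples was possible, so a gene is called higher or lower when the pools differ by 2-fold or more. Genotype, pool and array cannot be told apart. Within this pair of arrays the spread was small beside 2-fold. The ratio had a median SD of 0.047 (log2) between spots of the same probe (298 probes) and 0.095 between different probes of the same gene (4286 genes). Variation from labelling, hybridisation and array is not part of these values and could not be measured.

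The probes of the 7 genes with the largest ratios are shown with that of Got2, the mitochondrial partner of Got1, because the finding rests on 1 probe for each of them. Coordinates are those of the array files, on mouse build mm9, and the sequences are those of the probes, 5′ to 3′, all in lower case because no part of a probe is marked.
Got1, chr19:43574278-43574337, minus strand: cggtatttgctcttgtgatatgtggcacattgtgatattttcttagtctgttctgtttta
Sds, chr5:120933105-120933164, plus strand: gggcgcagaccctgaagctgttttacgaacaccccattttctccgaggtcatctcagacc
Tat, chr8:112523207-112523266, plus strand: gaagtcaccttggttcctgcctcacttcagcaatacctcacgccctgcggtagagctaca
Oat, chr7:139749726-139749785, minus strand: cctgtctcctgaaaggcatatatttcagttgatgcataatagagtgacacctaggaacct
Etnppl, chr3:130338517-130338576, plus strand: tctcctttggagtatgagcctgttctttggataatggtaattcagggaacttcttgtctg
Aass, chr6:23022668-23022727, minus strand: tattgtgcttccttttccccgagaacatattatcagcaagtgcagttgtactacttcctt
Hal, chr10:92979135-92979194, plus strand: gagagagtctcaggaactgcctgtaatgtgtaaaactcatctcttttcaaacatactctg
Got2, chr5:138804798-138804857, minus strand: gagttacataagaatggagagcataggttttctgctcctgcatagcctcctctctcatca
Of the 42 probes, 39 were placed on the genome by the array files, 37 of them on the chromosome that carries the gene in the RefSeq table (GRCm38.p6). The exceptions were the Got2 probe, placed on chromosome 5 although Got2 lies on chromosome 8, and 1 of the Glud1 probes, placed on chromosome 7 although Glud1 lies on chromosome 14. Both were designed on the gene's own transcript per the array files, and signal from a near-identical copy elsewhere cannot be told apart from the gene's own. Which exon or untranslated region a probe lies in was not analysed here.

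The breakdown enzymes lay on the KO side of the ratio scale, and 7 of the 36 passed the 2-fold mark. All 36 had a log2 ratio above 0, with a median of 0.55 and a range of 0.03 (Gcsh) to 1.72 (Got1), and 7 were higher while 0 were lower by 2-fold or more. Each of Gcsh, Glud1, Amt and Mccc2 dropped below 0 in at least 1 of 14 other processing settings, while the other 32 stayed above 0 in every setting that measured them. The 7 were Got1, Sds, Tat, Oat, Etnppl, Aass and Hal. Over all measured genes the median ratio was 0.04, with 1.29% higher and 1.85% lower by 2-fold or more, and 56.9% lay above 0. Most members gave bright spots, 27 of the 36 within the brightest decile of genes, so that decile is the closer background: its median was 0.11, and of its 1995 genes 2.36% were higher and 0.401% lower by 2-fold or more, and 70.1% lay above 0. At 1.5-fold, 17 members were higher and 0 lower, against 4.42% higher and 5.93% lower over all genes and 7.27% higher in the brightest decile. Before any scaling, the KO signal exceeded the WT signal for 33 of the 36. Of the 36 ratios, 19 lay above the 95th percentile of all genes, a log2 ratio of 0.54, and 3 were among the highest 100 genes (Got1 at rank 48, Sds at rank 76 and Tat at rank 95, with Oat at 101).

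**Figure D1:**
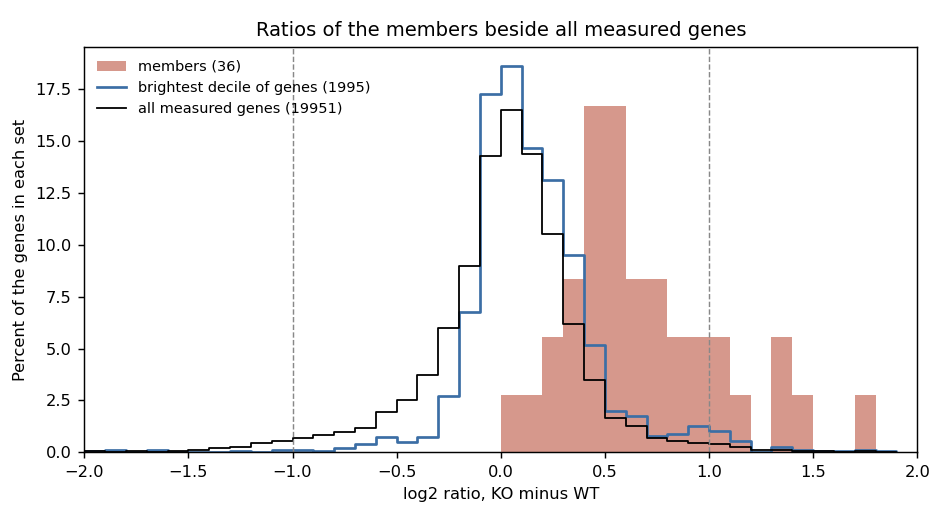
Percent of genes per 0.1 bin of the log2 ratio (KO minus WT) for the 36 members (bars), the 1995 genes of the brightest decile (blue line) and all 19951 measured genes (black line); ratios beyond 2 in either direction are not drawn, and dashed lines mark 2-fold. The members lie to the right of both backgrounds, between 0.03 and 1.72.

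The size of these ratios depends on where the scale is set. Without scaling every ratio moved by -0.25 (log2), and with scaling to the E1A spike-in controls by -0.16, which left 4 members at least 2-fold higher in each case: Got1, Sds, Tat and Oat. Those 4 were at least 2-fold higher in all 14 other settings tried. Each of them has 1 probe, so only the other scalings and the normexp background could move its ratio beyond rounding. Etnppl fell short of 2-fold without scaling and with the spike-ins, Aass in those and with quantile or loess scaling. Hal fell short in those 4 and with the normexp background. Scaling to the median added Gpt2 and Gls2, giving 9. Over all genes, 41.1% of those past 2-fold were on the higher side, a share that was 13.3% without scaling, 18.6% with the spike-ins and 51.3% with the normexp background. Against the median of all genes in the same setting, 34 to 36 of the members were higher in each setting that measured all 36. Leaving out spots with a mark on their local background removed 4 members (Agxt, Gpt, Pccb and Sdsl), and 31 of the remaining 32 then lay above the median of all genes.

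**Figure D2:**
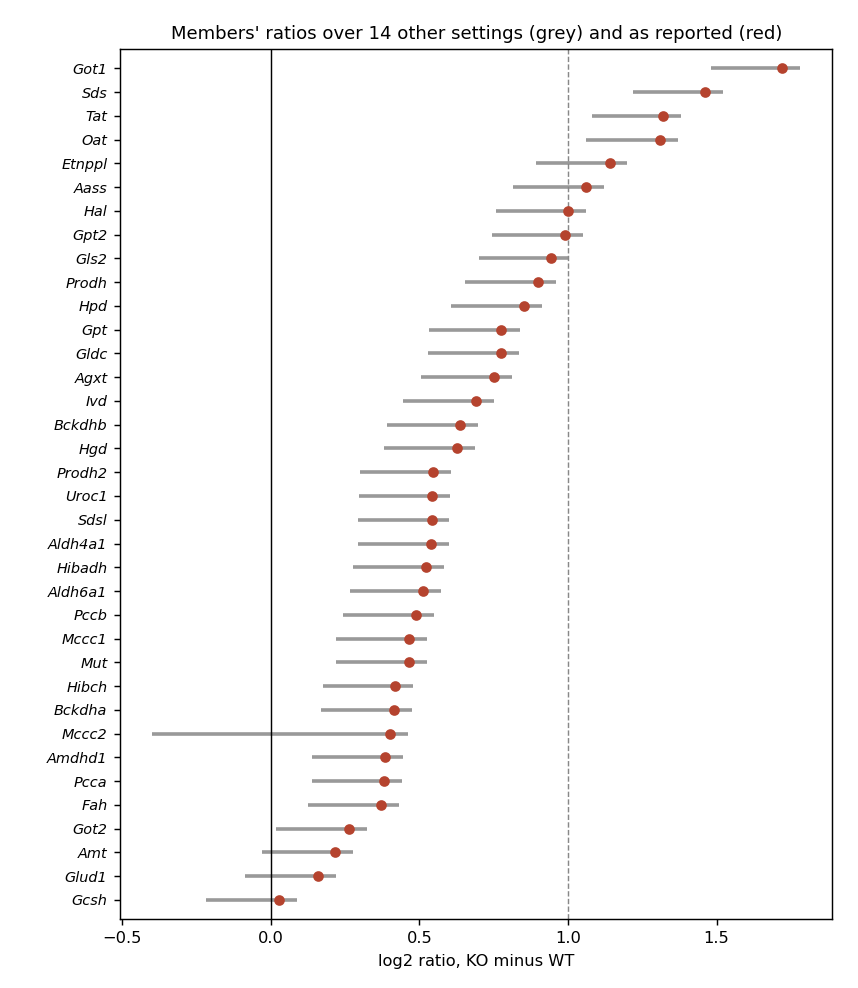
log2 ratio (KO minus WT) of each member as reported (red points) and its range over 14 other processing settings (grey lines), with a dashed line at 2-fold. Got1, Sds, Tat and Oat stay beyond 2-fold over their whole range, and the ranges of Mccc2, Amt, Glud1 and Gcsh cross 0.

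Of the 5 transaminases of aspartate, alanine and glyoxylate, Got1 alone was at least 2-fold higher in the KO pool, and 4 were at least 1.5-fold higher. Got1, the cytosolic aspartate aminotransferase, read 96232 in the KO pool and 34592 in the WT pool, 3.30-fold higher after scaling. Got2, its mitochondrial counterpart in the malate-aspartate shuttle, read 39591 in the KO pool and 39117 in the WT pool, a ratio of 1.2-fold. The only Got2 probe is placed on another chromosome than the gene, so signal from a near-identical copy cannot be told apart from that of Got2. The log2 ratios of these paralogues differed by 1.46. Scaling shifts both genes nearly alike, so this gap moved little between settings (1.43 to 1.46), and variation between animals was not measured. The alanine aminotransferases did not show such a gap. Gpt, the cytosolic form, read 74210 in the KO pool and 51356 in the WT pool (1.71-fold), and Gpt2, the mitochondrial form, read 27948 in the KO pool and 16674 in the WT pool (1.99-fold, just short of the 2-fold mark). Agxt, which turns glyoxylate into glycine and is best known as the enzyme lost in primary hyperoxaluria, read 83793 in the KO pool and 59019 in the WT pool (1.68-fold). The median log2 ratio of these 5 genes was 0.78.

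Glutamate and glutamine enzymes differed from each other. Gls2, the liver glutaminase that frees ammonia from glutamine, read 83616 in the KO pool and 51524 in the WT pool, 1.92-fold higher. Glud1, the mitochondrial glutamate dehydrogenase, read 69304 in the KO pool and 74214 in the WT pool with its brighter probe, and its ratio was 1.12-fold, with log2 ratios of 0.15 and 0.17 for its 2 probes. Glud1 was among the members whose ratio dropped below 0 in some settings, at -0.09 without scaling, -0.02 with quantile scaling and -0.0033 with the spike-ins.

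**Figure D3:**
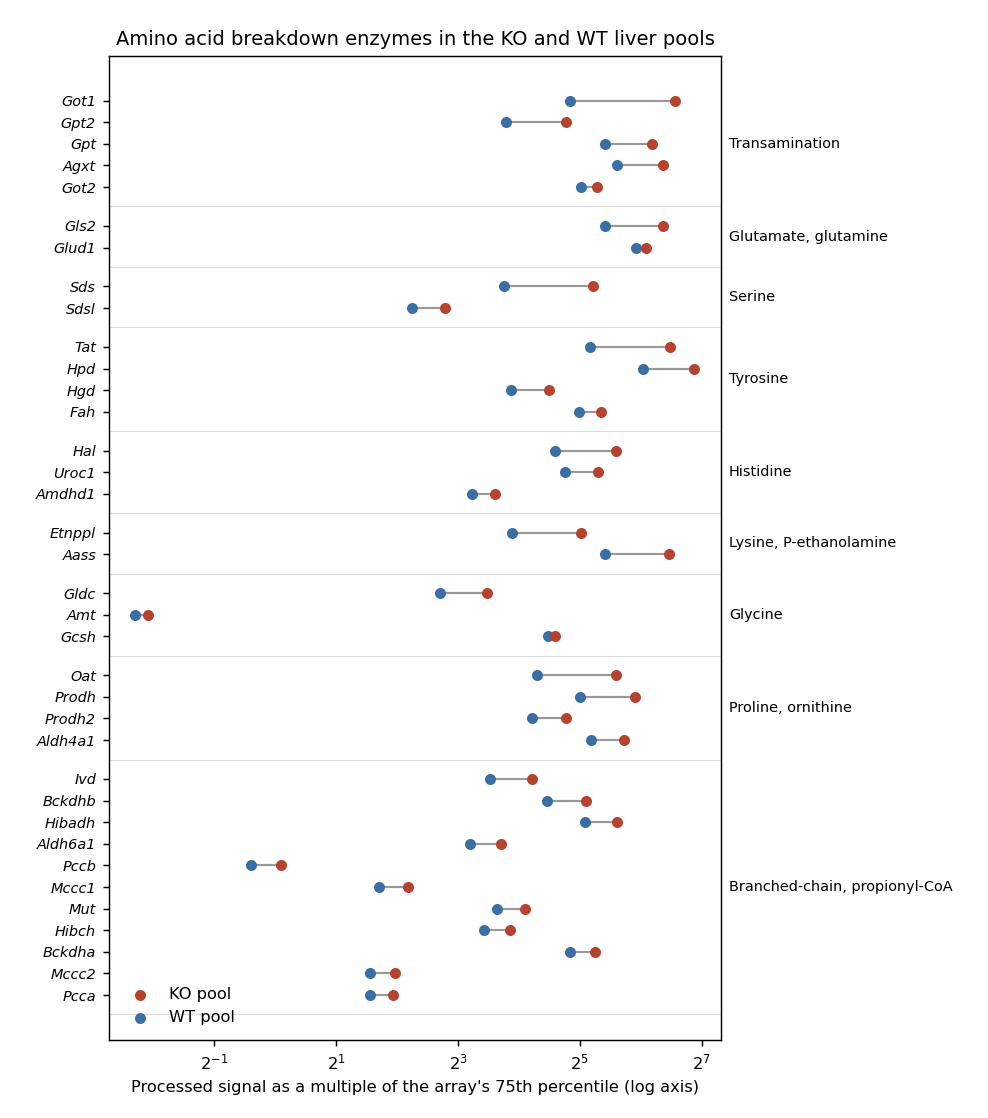
Scaled processed signal of each member in the KO pool (red) and the WT pool (blue) as a multiple of each array's 75th percentile, on a log axis, by route, with the median over probes in each pool where a gene has several; signals of different genes come from different probes and are not comparable as amounts of RNA. Every KO point lies to the right of its WT point, farthest apart for Got1 and closest for Gcsh.

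The serine-degrading pair also split. Sds, serine dehydratase, which converts serine to pyruvate, read 38069 in the KO pool and 16383 in the WT pool, 2.75-fold higher. Sdsl, serine dehydratase-like, read 7004 in the KO pool and 5708 in the WT pool, a ratio of 1.46-fold. No other gene of the RefSeq table lies between these neighbours on chromosome 5, and their log2 ratios differed by 0.92.

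Tyrosine breakdown showed a ratio that was smaller at each step of the pathway. Tat, tyrosine aminotransferase and the entry step, read 90675 in the KO pool and 43014 in the WT pool, 2.50-fold higher. Hpd, hydroxyphenylpyruvate dioxygenase, followed with 119967 in the KO pool and 78749 in the WT pool (1.81-fold), and Hgd, homogentisate dioxygenase, the enzyme lost in alkaptonuria, with 22942 in the KO pool and 17628 in the WT pool (1.54-fold). Gstz1, maleylacetoacetate isomerase, is not one of the 36 and had a ratio of 1.33-fold. Fah, fumarylacetoacetate hydrolase, the closing step, read 41600 in the KO pool and 38126 in the WT pool (1.29-fold). The gap between Tat and Fah was 0.95 (log2) and stayed between 0.92 and 0.95 over 14 other settings. The strict order of all 5 genes held in 12 of these and not with quantile scaling or the normexp background. Each of the 5 has 1 probe, so most settings could not change the order. Only quantile scaling, loess scaling and the normexp background could, and of these it held with loess alone. Gstz1 (0.41) and Fah (0.37) had close log2 ratios.

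Histidine breakdown had the same shape over its first 3 steps. Hal, histidine ammonia-lyase, read 49401 in the KO pool and 29236 in the WT pool, a ratio of 2.003-fold that only just met the 2-fold mark. Uroc1, urocanate hydratase, read 39826 in the KO pool and 32395 in the WT pool (1.46-fold). Amdhd1, imidazolonepropionase, read 12427 in the KO pool and 11289 in the WT pool (1.30-fold). The order of these 3 held in all 14 other settings. Each of the 3 has 1 probe, so only quantile scaling, loess scaling and the normexp background could have changed it. Amdhd1 lies next to Hal on chromosome 10 with 0 genes of the RefSeq table between them, and the log2 ratios of the neighbours differed by 0.62. Ftcd, the bifunctional enzyme that passes the remaining carbon to folate, had a ratio of 1.35-fold, no smaller than that of Amdhd1.

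Proline and ornithine both end in glutamate by way of pyrroline carboxylate. Oat, the mitochondrial ornithine aminotransferase, read 49273 in the KO pool and 23625 in the WT pool, 2.47-fold higher. Prodh, proline dehydrogenase, read 60641 in the KO pool and 38572 in the WT pool (1.86-fold), and Prodh2, which acts on hydroxyproline, read 27735 in the KO pool and 22518 in the WT pool (1.46-fold). Aldh4a1, the dehydrogenase that completes these routes, read 53718 in the KO pool and 43805 in the WT pool (1.45-fold). The entry enzymes Oat and Prodh thus had larger ratios than the shared later step, and Prodh exceeded Aldh4a1 in all 14 other settings, by 0.34 to 0.36. Prodh and Aldh4a1 have 1 probe each, so most of these settings could not change that gap.

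Aass, the bifunctional aminoadipic semialdehyde synthase that opens mitochondrial lysine breakdown, read 90497 in the KO pool and 51468 in the WT pool, 2.08-fold higher. Later lysine genes outside the 36 did not follow a graded order: Aldh7a1 had a ratio of 1.30-fold, Aadat 1.84-fold, Dhtkd1 1.61-fold and Gcdh 1.31-fold. Etnppl, a PLP enzyme that breaks down phosphoethanolamine, a head group of membrane phospholipids, read 33071 in the KO pool and 17820 in the WT pool, 2.20-fold higher.

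**Figure D4:**
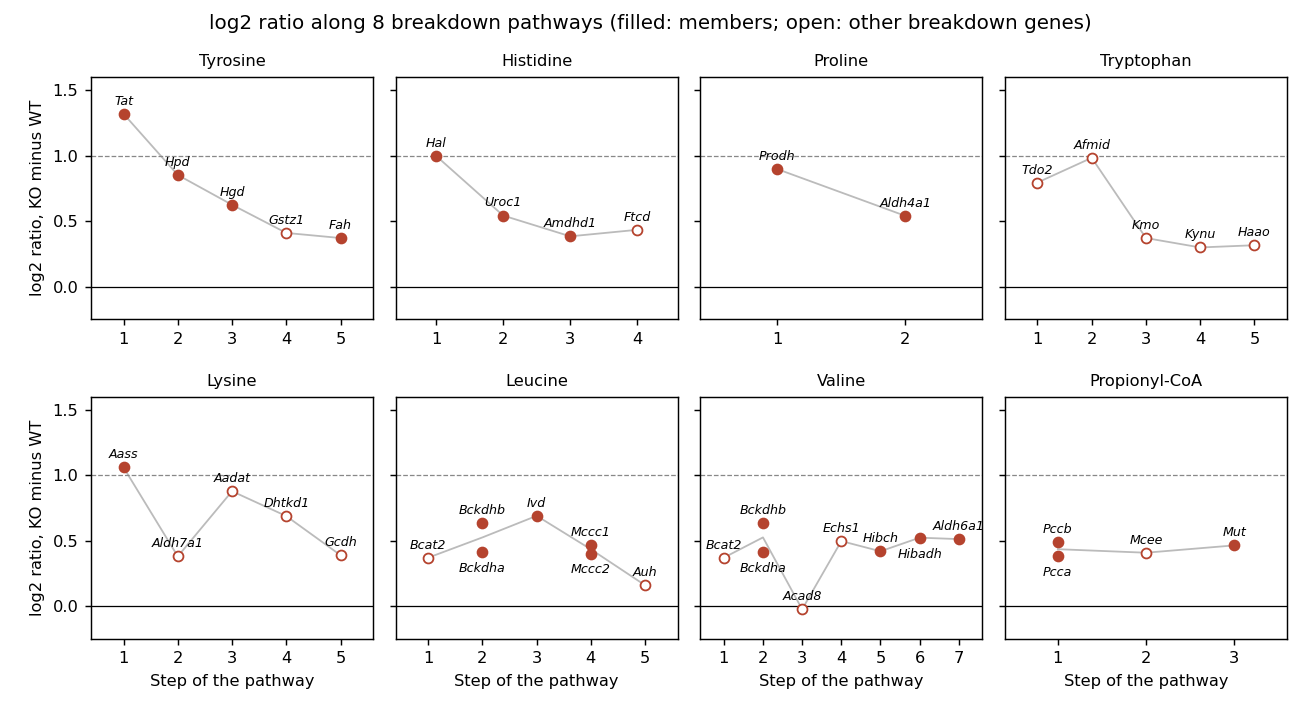
log2 ratio (KO minus WT) against the step of the pathway in 8 breakdown pathways, with filled points for the members and open points for other breakdown genes; the grey line joins the mean of each step, the black line is 0 and the dashed line is 2-fold. Tyrosine and proline descend at every step and histidine over its first 3, with Ftcd (0.43) above Amdhd1 (0.38); the valine panel dips to Acad8 (-0.02) and returns to 0.51 at Aldh6a1, and the propionyl-CoA points lie between 0.38 and 0.49.

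The glycine cleavage system, a mitochondrial complex that splits glycine and loads a carbon onto folate, was the route with the lowest median, 0.22. Gldc, its PLP-dependent decarboxylase, read 11376 in the KO pool and 7885 in the WT pool (1.71-fold). Amt, the aminomethyltransferase, read 239.7 in the KO pool and 244.8 in the WT pool (1.16-fold after scaling), and it was the only member dimmer than the median gene, with 39.2% of measured genes below its brightness. Gcsh, the lipoyl-carrying H protein, read 24862 in the KO pool and 28888 in the WT pool with its brightest probe, and its 3 probes gave a median ratio of 1.02-fold. Its probes did not read alike, and they are shown because they disagree in brightness and in sign.
Gcsh, dim probe, chr8:119505787-119505846, minus strand: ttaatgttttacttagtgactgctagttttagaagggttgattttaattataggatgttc
Gcsh, brightest probe, chr8:119505872-119505931, minus strand: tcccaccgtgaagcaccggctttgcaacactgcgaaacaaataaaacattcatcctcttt
Gcsh, remaining probe, chr8:119505978-119506037, minus strand: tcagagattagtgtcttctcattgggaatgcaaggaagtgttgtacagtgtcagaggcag
The dim probe read 82.9 in the KO pool and 129.6 in the WT pool, with a log2 ratio of -0.40, while the other two had ratios of 0.03 and 0.11. Its GC content was 28.3%, against 45.0% for each of the others. Dld, the lipoamide dehydrogenase that the complex shares with other complexes, had a ratio of 1.09-fold.

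None of the branched-chain amino acid and propionyl-CoA enzymes passed 2-fold, and their ratios were close to each other. All 11 had log2 ratios between 0.38 and 0.69, with a median of 0.47, and 0 reached 2-fold and 2 reached 1.5-fold. Only 1.29% of all genes and 2.36% of the brightest decile were at least 2-fold higher. A count of 0 among 11 genes therefore does not set them apart from the background. The branched-chain keto acid dehydrogenase subunits read 38778 (Bckdha) and 34930 (Bckdhb) in the KO pool, against 34520 (Bckdha) and 26632 (Bckdhb) in the WT pool, with ratios of 1.33-fold and 1.56-fold. On the leucine route Ivd, isovaleryl-CoA dehydrogenase, read 18807 in the KO pool and 13822 in the WT pool (1.61-fold, the highest of the 11). The methylcrotonyl-CoA carboxylase subunits gave 7876 (Mccc1, the biotin-carrying subunit) and 3969 (Mccc2) in the KO pool, against 6479 (Mccc1) and 3560 (Mccc2) in the WT pool, ratios of 1.38-fold and 1.32-fold. A further Mccc2 probe, designed on another transcript, was well above background in the WT pool alone (25.99 in the KO pool against 70.7 in the WT pool), and counting it turned the ratio of Mccc2 to -0.40.

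On the valine route Hibch read 14641 in the KO pool and 12977 in the WT pool (1.34-fold). Hibadh, hydroxyisobutyrate dehydrogenase, read 49845 in the KO pool and 41105 in the WT pool (1.44-fold). Aldh6a1, methylmalonate semialdehyde dehydrogenase, read 57392 in the KO pool and 49394 in the WT pool with its brighter probe, and its 2 probes gave log2 ratios of 0.46 and 0.56. The propionyl-CoA carboxylase subunits read 3884 (Pcca) and 1082 (Pccb) in the KO pool, against 3533 (Pcca) and 913.8 (Pccb) in the WT pool, and had ratios of 1.30-fold and 1.40-fold. Mut (now named Mmut), the cobalamin-dependent methylmalonyl-CoA mutase, read 17477 in the KO pool and 15019 in the WT pool (1.38-fold). Subunits of the same enzyme differed by varying amounts: the log2 ratios of Mccc1 and Mccc2 differed by 0.06, those of Pccb and Pcca by 0.11 and those of Bckdhb and Bckdha by 0.22, while Dbt, the core subunit of the last complex and not one of the 36, had a log2 ratio of 0.88.

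**Figure D5:**
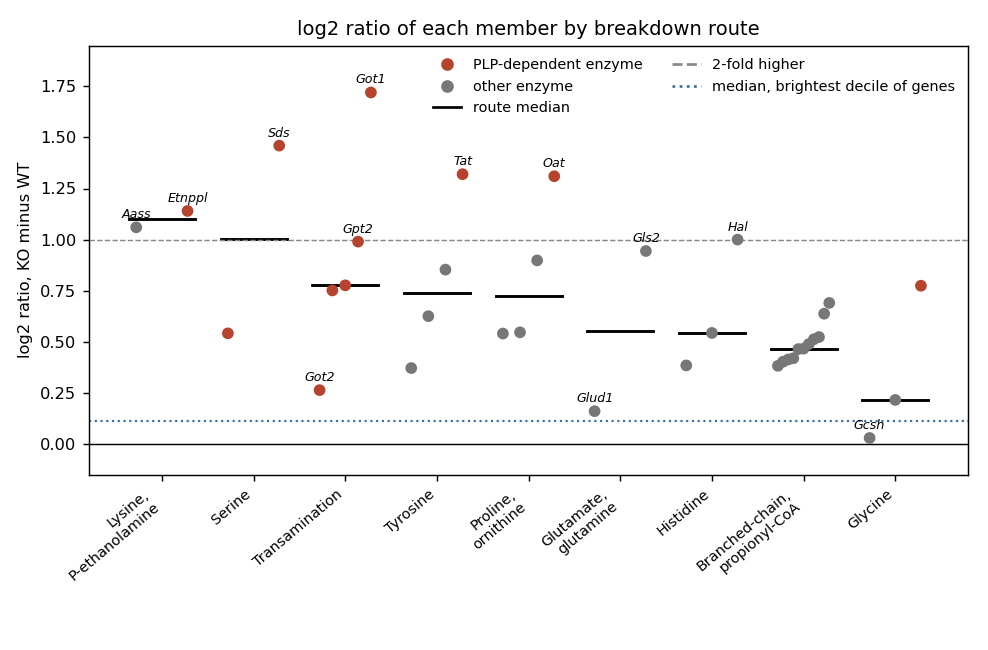
log2 ratio (KO minus WT) of each member by route, ordered by route median (black bars), with PLP-dependent enzymes in red, other enzymes in grey, a dashed line at 2-fold and a dotted line at the median of the brightest decile of genes, 0.11. The 11 branched-chain points form a narrow band between 0.38 and 0.69, while the transaminase points spread from 0.26 to 1.72.

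Ordered by median, the routes ran from lysine and phosphoethanolamine (1.1, 2 genes), serine (1.0, 2 genes), transamination (0.78, 5 genes), tyrosine (0.74, 4 genes) and proline and ornithine (0.72, 4 genes) to glutamate and glutamine (0.55, 2 genes), histidine (0.54, 3 genes), branched-chain (0.47, 11 genes) and glycine (0.22, 3 genes). Neighbouring routes in this order overlapped in the range of their genes. None of these differences between routes could be tested. The 25 members outside the branched-chain route had a median of 0.77, and 7 of them were at least 2-fold higher, against 0.47 and 0 of 11 within it. A count of 0 among 11 is also what the background shares would give.

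The members can also be sorted by cofactor and by compartment, although both overlap with the routes. All 5 members of the transamination route are PLP enzymes, and all 11 of the branched-chain route are mitochondrial and not PLP-dependent. The 11 PLP-dependent enzymes had a median log2 ratio of 0.99, with 9 at least 1.5-fold and 5 at least 2-fold higher. The other 25 had a median of 0.51, with 8 at least 1.5-fold and 2 at least 2-fold higher. Got2 and Sdsl were the PLP enzymes among the members under 1.5-fold. The contrast by cofactor was not seen in the breakdown genes read outside the list, whose median was 0.37. PLP enzymes there ranged from -0.23 (Hdc) to 0.88 (Aadat), all short of 2-fold. Hdc, Srr, Kyat1, Kyat3, Phykpl, Gcat, Kynu and Shmt2 lay below that median, Bcat2 at it, and Shmt1, Abat, Agxt2 and Aadat above it. The larger median of PLP enzymes is thus stated for the members alone. By compartment, the 11 cytosolic enzymes had a median of 0.78 and the 24 mitochondrial ones 0.52, with Agxt in peroxisomes; the 13 mitochondrial enzymes outside the branched-chain route had 0.77. PLP enzymes of the cytosol had a median of 1.32 and those of mitochondria 0.99 (5 each). These are descriptions of 1 pair of pools and no difference between the sets was tested.

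Promoter sequence was available from RefSeq (GRCm38.p6, 250 bases before to 50 after a start site) for 31 of the 36 genes, in 35 windows. Each window was searched on both strands for 6 short motifs. CCAAT, the core of the CCAAT box, was found in 62.9% of the 35 windows (19 of 31 genes), against 37.4% of all 32851 windows. The half-site TGACG of the cAMP response element was found in 8.57% against 20.8%, the full element TGACGTCA in 0 windows against 1.79%, TATAAA in 8.57% against 13.6%, AGAACA (a half-site of the glucocorticoid receptor) in 11.4% against 19.0%, and TTGCNNAA (a C/EBP motif) in 11.4% against 10.8%. TGACG overlaps TGACGTCA by construction. Of the 7 genes that were at least 2-fold higher, 6 had a window, and CCAAT was present in those of 5 of them: Aass, Got1, Hal, Oat and Tat. The window of Got1 held 6 copies, a number reached by 26 of all windows (0.0791%), and that of Tat held 3, while that of Got2 held 0. At least 3 copies were found in 3.37% of all windows. Members short of 2-fold had as many: Aldh4a1, Mccc1 and Mccc2 held at least 3, and Aldh6a1 and Ivd at least 4. The windows of Got1, Tat and Got2 are shown because Got1 and Got2 differed most among the paralogues. Capitals mark each CCAAT on either strand, and in Got2 the capitals mark TATAAA, read on the opposite strand.
Got1, chr19:43524556-43524855, minus strand: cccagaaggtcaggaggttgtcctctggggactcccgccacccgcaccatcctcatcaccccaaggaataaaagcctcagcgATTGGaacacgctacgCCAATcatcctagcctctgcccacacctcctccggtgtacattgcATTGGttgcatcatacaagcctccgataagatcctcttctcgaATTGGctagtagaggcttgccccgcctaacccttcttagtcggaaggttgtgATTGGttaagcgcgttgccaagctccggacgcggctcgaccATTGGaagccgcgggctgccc
Tat, chr8:109990186-109990485, plus strand: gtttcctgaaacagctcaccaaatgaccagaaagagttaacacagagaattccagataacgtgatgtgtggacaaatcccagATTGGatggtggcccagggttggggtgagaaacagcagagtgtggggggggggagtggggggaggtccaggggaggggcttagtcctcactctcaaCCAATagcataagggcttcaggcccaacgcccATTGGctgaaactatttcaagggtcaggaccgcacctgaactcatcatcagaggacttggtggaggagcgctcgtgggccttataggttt
Got2, chr8:95888352-95888651, minus strand: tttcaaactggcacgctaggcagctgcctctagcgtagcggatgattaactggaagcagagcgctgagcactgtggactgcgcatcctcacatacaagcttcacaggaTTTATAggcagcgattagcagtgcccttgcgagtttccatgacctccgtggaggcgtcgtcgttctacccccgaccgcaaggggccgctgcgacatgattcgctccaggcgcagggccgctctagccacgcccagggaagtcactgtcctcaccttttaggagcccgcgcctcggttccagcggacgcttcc
A match describes these letters and is not evidence of a bound site.

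Other genes of amino acid breakdown were read beside the 36. Of 48 further breakdown genes 45 were measured (Gad1, Dao and Bcat1 were not well above background on either array), with a median log2 ratio of 0.37; 40 were above 0 and 5 below, 1 was past 2-fold upward and 0 downward. At 1.5-fold 10 were higher and 0 lower. The share at least 2-fold higher was 1.29% of all genes and 2.36% of the brightest decile, and 1 of 45 lies between these. At 1.5-fold the shares were 4.42% and 7.27%, and above 0 they were 56.9% and 70.1%. The single gene of these 45 past 2-fold was Acmsd, which directs tryptophan carbon away from NAD synthesis. It read 947.2 in the KO pool and 405.0 in the WT pool (2.77-fold, and past 2-fold in all 14 other settings). Acmsd has 1 probe, so most of these settings could not move its ratio beyond rounding. Next came Afmid, kynurenine formamidase (1.98-fold), and Dbt (1.84-fold). Among the lowest were Hdc, histidine decarboxylase, with a log2 ratio of -0.23, and Srr, serine racemase, at -0.14. In the tryptophan pathway Tdo2, the entry enzyme, had a ratio of 1.74-fold, and Kmo, Kynu and Haao after Afmid had 1.29-fold, 1.23-fold and 1.25-fold. Bcat2, the entry transaminase of the branched-chain amino acids, had a ratio of 1.29-fold.

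Enzymes next to these routes were read for comparison. All 6 urea cycle genes were above 0, with a median log2 ratio of 0.76; Asl, argininosuccinate lyase, was the only one at least 2-fold higher, with 49036 in the KO pool and 28093 in the WT pool (2.07-fold, short of 2-fold with quantile, loess, spike-in or no scaling). Amino acid synthesis genes went the other way. Of 9 listed, 7 were measured; 6 were below 0, with a median of -0.49. Psat1, the phosphoserine aminotransferase of serine synthesis and itself a PLP enzyme, read 72.5 in the KO pool and 335.9 in the WT pool with its brighter probe, 3.91-fold lower. Asns, asparagine synthetase, read 91.2 in the KO pool and 353.3 in the WT pool, 3.27-fold lower. Both are dim genes whose size depended on the processing: Psat1 was 2.1-fold lower without the filter on dim probes and Asns 2.3-fold lower with the normexp background, the smallest values over the 13 and 14 other settings that measured them.

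Liver RNA is a mixture of cells, in which fewer cells of a type and less RNA per cell cannot be told apart. Of 10 hepatocyte markers 9 were measured, 8 of them above 0, with a median log2 ratio of 0.16. The range was -0.15 (Apoa1) to 0.24 (Alb), with 0 past 2-fold. These signs depend on the scaling, because before it each of the 9 read lower in the KO pool. Their summed signal before scaling was 1828000 in the KO pool and 1928000 in the WT pool. After scaling it was 1800 times the array's 75th percentile in the KO pool and 1600 times in the WT pool. Kupffer cell markers were below 0 in 8 of 8, with 4 at least 2-fold lower, among them Marco (2.53-fold), Cd5l (2.33-fold) and Adgre1 (2.24-fold), and a summed signal of 51.3 in the KO pool and 105 in the WT pool on the same scale. Lymphocyte markers were below 0 in 8 of 8, with 4 at least 2-fold lower, among them Cd74 (2.68-fold), Cd3d (2.55-fold) and Ms4a1 (2.53-fold). The smallest difference was that of Cd3e, with a log2 ratio of -0.06. Cd74 weighed most in their summed signal. Before scaling it read 3276 of 6701 in the KO pool and 10394 of 15290 in the WT pool. The scaled sums were 6.58 in the KO pool and 12.7 in the WT pool. Neutrophil markers were below 0 in all 4 measured, 2 of them at least 2-fold lower (S100a8 at 3.37-fold and S100a9 at 3.13-fold), with sums of 0.436 in the KO pool and 1.31 in the WT pool. Endothelial, stellate cell and fibroblast, cholangiocyte and erythroid markers had medians of -0.21, -0.42, -0.11 and 0.02, and of the 24 measured Acta2 alone was at least 2-fold apart, 2.01-fold lower in the KO pool. Of 8 markers of pancreas, kidney, muscle and fat, 3 were not well above background on either array (Prss1, Umod and Ckm). Another 3 were well above background in the WT pool alone (Acta1, Adipoq and Plin1). Their log2 ratios were bounded only to at most 0.03 (Acta1), -0.09 (Adipoq) and 0.06 (Plin1), so no clear difference can be read from them. Cela1 was 2.77-fold lower and Slc22a6 had a log2 ratio of 0.53. The KO signal of Cela1, 22.2, lay near 17.9, the lowest signal well above background on that array. The part of cell composition in the ratios of the breakdown enzymes was not tested; their median of 0.55 stands beside 0.16 for the hepatocyte markers.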

How the data were processed

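Liver RNA pools of both genotypes were measured on 1 array each and grouped by the genotype in the labels. Per the labels' protocols, 200 ng of column-purified total RNA was amplified and labelled with Cy3. The authors read spot intensity in Agilent Feature Extraction 11.5.1.1 (named in the submitters' processing notes), with spatial and multiplicative detrending and probe positions on mm9, per the file headers. The value table deposited by the authors holds intensity too: each column equals the processed signal divided by a constant (1019 for KO, 1207 for WT; column medians 0.0763 and 0.0800). It is linear and not centred by gene, and its direction needs no choice because each column is 1 sample.

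log2 processed signal had the 75th percentile of the array's non-control spots subtracted. Control spots and spots with an outlier mark of their own (170 KO, 119 WT) were left out. Spots marked only for their local background (746 KO, 780 WT) were kept, because the subtracted background equalled the fitted surface, within 0.001, at 100.0% of spots. Spots of a probe were averaged, and each gene was given the median ratio of its probes well above background on both arrays. Of 39429 probes, 28330 were named by accession and 2378 by name in the RefSeq table, and 8721 kept the array's name. Members went by the array's gene name. Named genes were all members, the other breakdown genes past 2-fold or among the 3 highest and 3 lowest, and at most 3 genes past 2-fold of each further list; others are named to complete a pathway or list, and some that the rule would name are not reported here. A bound set a gene measured on 1 array against the lowest signal well above background on the other. The number of arrays limits the precision. Pathway orders, motifs and the further lists were likewise chosen with earlier results of these data known. Protein sequences were not used here. Alternatives tried were scaling by other means (median, quantile, loess with span 0.3, spike-ins, none), a normexp background with offset 50, the value table, and other spot, probe, naming and threshold rules. The steps were tested on simulated data. Python 3.11.15, numpy 2.4.6, pandas 2.3.3, statsmodels 0.14.6 and limma 3.58.1 in R 4.3.3 were used.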

Additional observations from a re-analysis of the deposited data

How the results depend on the processing

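No paired analysis was possible because there is 1 array per genotype, so no replicate could be left out. A median counts as shifted when it moved by more than 0.095 (log2), the spread between probes of a gene. No value past 2-fold changed sign, and of 252 recomputed summaries 192 stayed within that spread, or within 1.5 times for counts. Without scaling and with the spike-ins, 4 members each were at least 2-fold higher, and over all genes 116 and 139 were higher and 759 and 609 lower. The median of members was then 0.30 and 0.38, that of other breakdown genes 0.12 and 0.21, and those of the routes were 0.53 and 0.61 (transamination), 0.31 and 0.39 (glutamate), 0.76 and 0.84 (serine), 0.49 and 0.58 (tyrosine), 0.30 and 0.38 (histidine), 0.85 and 0.94 (lysine), -0.0303 and 0.0516 (glycine), 0.48 and 0.56 (proline), and 0.22 and 0.30 (branched-chain). These shifts follow from the constant by which the scale moved. Route names are shortened here, and lysine stands for lysine and phosphoethanolamine. With quantile and loess scaling the route medians were 0.61 and 0.64 (transamination), 0.37 and 0.41 (glutamate), 0.60 and 0.61 (tyrosine), 0.41 and 0.42 (histidine), 0.95 and 0.98 (lysine) and 0.58 and 0.60 (proline), and with quantile scaling 0.37 (branched-chain) and 0.26 (other breakdown genes); the cause was not tested. With normexp 135 genes were higher and 128 lower, without the filter on dim probes 994 and 1235, and among probes above the median signal 145 and 221. At 1.5-fold 17 members, 10 other breakdown genes and 882 of all genes were higher and 1183 lower, and at 3-fold 1, 0, 61 and 54. Scaling to the median gave 2 other breakdown genes past 2-fold. The mean over members was 0.68. Leaving out background-marked spots, chosen after seeing the data, moved the transamination median to 0.99 and the serine median to 1.46, with fewer genes in each. Amt and the dim Gcsh and Mccc2 probes lie nearest the background, where ratios are least reliable.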
